A study of Mus musculus with 6 samples.

Results

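The genes described here are 10 genes of the machinery that builds melanosomes and moves them through the cell: Rab27a, Rab32, Rab38, Mlph, Myo5a, Mreg, Hps1, Hps4, Lyst and Gpnmb. They were chosen by gene symbol from a table of 56734 symbols, and all 10 were present and had enough counts to be tested. Polyadenylated RNA was sequenced from cultured B16-OVA cells, mouse melanoma cells that were modified to make the model antigen ovalbumin. The 6 libraries came from 3 WT samples and 3 samples labelled with a knockout of Ythdf2 (Ythdf2-KO), and both groups carry the ovalbumin modification. The sample titles give the tag gNC for WT and gY2 for Ythdf2-KO, whose meaning the labels do not spell out, so the WT cells may not be unmanipulated. The labels say neither whether each group is 1 clone nor whether the replicates were separate cultures. The p-values therefore set each group difference against the spread between these libraries, which may be technical. If each group is 1 clone, a difference between clones cannot be told apart from one of genotype. Total counts were 55660473 to 69497273 per library.

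Melanosomes are lysosome-related organelles: they arise from endosomes, receive pigment enzymes through dedicated transport carriers, and are then carried along microtubules and actin toward the cell edge. Rab GTPases mark the carriers and the mature organelle and recruit adaptors and motors. Mutations in many of these genes dilute the mouse coat color, as at the ashen (Rab27a), leaden (Mlph), dilute (Myo5a), chocolate (Rab38), pale ear (Hps1), light ear (Hps4) and beige (Lyst) loci. YTHDF2 is a cytoplasmic reader of N6-methyladenosine on mRNA and is known to promote decay of the mRNAs it binds.

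Of the 10 genes, 8 were higher and 1, Rab32, was lower in Ythdf2-KO, and Hps4 did not pass the test. Rab27a and Rab38 rose 5.77- and 5.71-fold, while the other 6 rises were 1.09- to 1.38-fold. Calls rest on an adjusted p under 0.05 (edgeR's quasi-likelihood test, Benjamini-Hochberg over all 17718 genes tested). Across all genes, 49.9% were called, 24.1% as higher and 25.8% as lower, so a single called gene is not unusual in these data. The median log2 fold change of the 10 genes was 0.31, against -0.0053 over all genes tested. Rab27a and Rab38 were called and at least 2-fold higher, as were 6.16% of all genes, while Rab32 was less than 2-fold lower. The groups did not overlap for 9 of the 10 genes, against 55.9% of all genes: all 3 Ythdf2-KO libraries lay above all 3 WT libraries for 8 (26.9% of all genes) and below them for 1 (28.9% of all genes). With upper-quartile scaling, 59.2% of all calls were higher rather than 48.3%, and the 10 genes were again split into 8 higher and 1 lower.

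**Figure D1:**
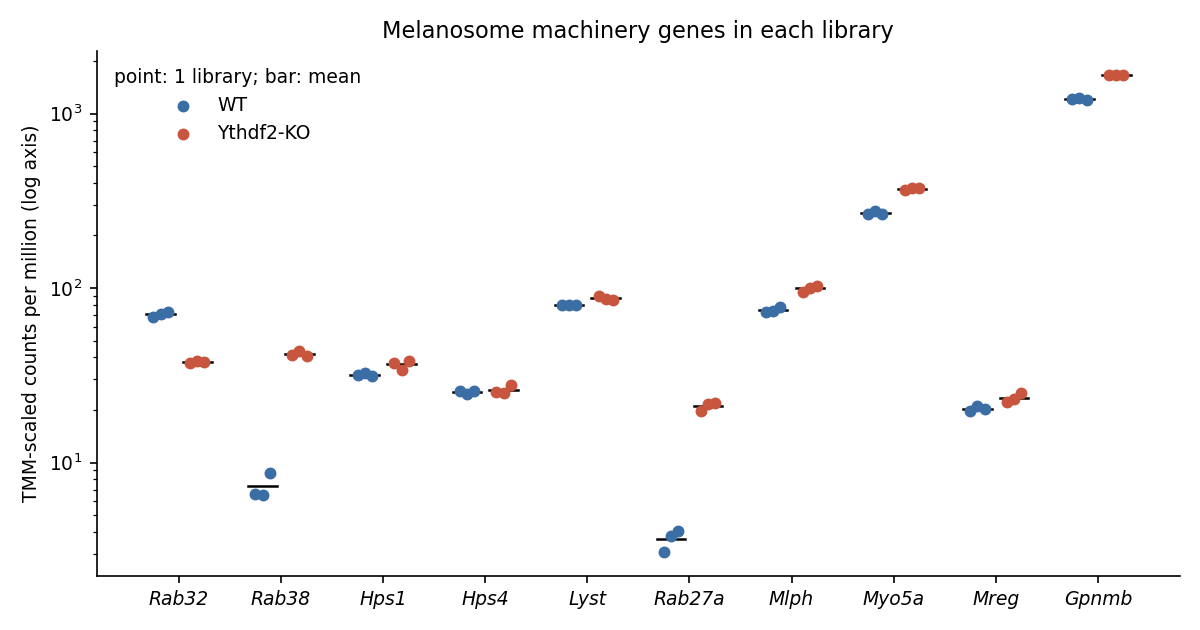
TMM-scaled counts-per-million (CPM) of each gene on a log axis, with 1 point per library, WT in blue, Ythdf2-KO in red and a bar at the mean of 3. Rab38 and Rab27a are the genes whose groups stand farthest apart, Rab32 is the gene whose Ythdf2-KO points lie below WT, and the Hps4 points overlap.

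Ythdf2 mRNA itself stood at 124, 124 and 125 CPM in the WT libraries and 100.1, 101 and 104 CPM in the Ythdf2-KO libraries, so gene-level counts showed a lower level but neither the edit nor the protein. All 8 melanocyte-lineage markers were detected, and their summed level was 257 to 260.5 CPM in WT and 1436 to 1465 CPM in Ythdf2-KO. Their log2 fold changes ran from 0.34 for Mitf to 2.93 for Tyr. Mlana, Pmel, Tyr, Tyrp1, Dct, Mitf and Sox10 are also on the cargo and MITF-family lists below, so those rises are not separate observations. In bulk RNA, more cells of a type and more RNA per cell cannot be told apart. Leukocyte markers summed to 53.0 to 55.7 CPM in WT against 34.6 to 39.0 CPM in Ythdf2-KO libraries; among them, Csf1r, Adgre1, Itgam, Cd3e and Nkg7 stayed below 1 CPM in each library. Fibroblast markers summed to 3135 to 3232 CPM in WT and 3411 to 3464 CPM in Ythdf2-KO, mostly from Col6a3, and went both ways: Dcn and Lum fell 11.7- and 2.56-fold, and Fap, Pdgfra and Col6a3 rose 5.16-, 1.51- and 1.25-fold. Endothelial markers summed to 2.53 to 2.66 CPM in WT and 1.71 to 2.17 CPM in Ythdf2-KO. Keratinocyte and epithelial markers summed to 0.718 to 0.817 CPM in WT and 1.03 to 1.34 CPM in Ythdf2-KO. Mitochondrially encoded genes took 1.08 to 1.33% of the counts in WT and 1.57 to 1.82% in Ythdf2-KO. Malat1, a nuclear-retained RNA, also differed without overlap, with 376 to 511 CPM in WT and 576 to 722 CPM in Ythdf2-KO. Scaling without the mitochondrial genes and without the 20 most abundant genes again called 8 of the 10 genes higher and 1 lower. That setting changes only how the libraries are scaled. The part of these marker levels and shares in the results was not tested.

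Promoter sequences are shown for the genes with a motif and for Rab32, the gene that fell, because the basic helix-loop-helix leucine zipper factors of the MITF family, known regulators of pigment genes, bind E-boxes. RefSeq start sites on build GRCm38.p6 were matched by symbol for 9 of the 10 genes, with 12 promoters in all; Rab38 had no entry. The counts were made on another build, GRCm39. Each promoter ran from 250 bases before to 50 bases after the start, and the E-boxes CACGTG and CATGTG were searched on both strands. At least 1 of these motifs was present in 3 of the 12 promoters, 1 each of Rab27a, Mlph and Hps1, against 20.4% of all 32851 promoters of that length. CACGTG was held by 7.15% of all promoters and CATGTG by 14.2%. The sequences below run 5′ to 3′ on the gene's strand, from 250 bases before to 10 bases after the start, with the motifs in capitals.
Mlph, plus strand, chr1:90914850-90915109: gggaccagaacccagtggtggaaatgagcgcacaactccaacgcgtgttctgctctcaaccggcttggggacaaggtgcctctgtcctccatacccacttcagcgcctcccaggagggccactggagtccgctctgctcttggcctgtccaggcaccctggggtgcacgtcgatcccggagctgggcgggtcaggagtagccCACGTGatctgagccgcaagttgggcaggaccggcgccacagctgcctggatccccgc
Hps1, first of 2 starts, minus strand, chr19:42779969-42780228: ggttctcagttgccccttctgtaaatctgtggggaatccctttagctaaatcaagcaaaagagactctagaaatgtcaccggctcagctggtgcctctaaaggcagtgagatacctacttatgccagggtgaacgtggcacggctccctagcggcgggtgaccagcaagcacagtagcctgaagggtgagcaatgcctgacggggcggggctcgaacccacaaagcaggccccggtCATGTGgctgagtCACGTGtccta
Rab27a, second of 2 starts, plus strand, chr9:73063898-73064157: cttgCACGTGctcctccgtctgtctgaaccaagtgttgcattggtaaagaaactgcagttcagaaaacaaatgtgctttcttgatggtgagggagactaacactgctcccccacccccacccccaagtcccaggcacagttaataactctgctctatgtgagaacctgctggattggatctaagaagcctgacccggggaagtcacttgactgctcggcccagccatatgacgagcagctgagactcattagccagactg
Rab32, minus strand, chr10:10558198-10558457: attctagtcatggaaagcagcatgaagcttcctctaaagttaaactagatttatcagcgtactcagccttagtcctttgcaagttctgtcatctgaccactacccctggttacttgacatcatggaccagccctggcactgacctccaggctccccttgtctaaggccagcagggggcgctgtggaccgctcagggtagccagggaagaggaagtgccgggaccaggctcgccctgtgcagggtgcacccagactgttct
The motif of Mlph began 48 bases before the start, those of Hps1 14 bases and 1 base before it, and that of Rab27a 246 bases before its second start. Neither motif was found in the window of Rab32, which fell, in those of Myo5a, Mreg, Lyst and Gpnmb, which rose, in that of Hps4, or at the other start of Rab27a and of Hps1. A match of letters does not show binding.

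Rab32 and Rab38 are closely related GTPases that act in the delivery of pigment enzymes such as tyrosinase and TYRP1 to maturing melanosomes, and they moved in opposite directions. Rab38 stood at 6.64, 6.49 and 8.76 CPM in the WT libraries and 41.1, 43.5 and 40.9 CPM in the Ythdf2-KO libraries (replicates 1 to 3 in each list of values). Each Ythdf2-KO library was far above each WT library, and WT replicate 3 was the highest of its group. Rab38 rose by a log2 fold change of 2.51 ± 0.083 (SE, n = 3 per group; edgeR adjusted p = 2.98e-13), ranking 261 of the 17718 genes when ordered from the largest rise. Without WT replicate 3 the log2 fold change was 2.67.

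Rab32 stood at 68.3, 71.0 and 72.4 CPM in the WT libraries and 37.3, 38.4 and 37.7 CPM in the Ythdf2-KO libraries. The groups did not overlap, and the libraries of each group lay close together. Rab32 fell 1.87-fold, by a log2 fold change of -0.90 ± 0.036 (SE, n = 3 per group; edgeR adjusted p = 1.06e-25).

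With both genes expressed per kilobase of their longest annotated transcript, Rab38 made up 11.7, 11.1 and 14.1% of the summed Rab32 and Rab38 level in the WT libraries and 60.03, 60.7 and 59.7% in the Ythdf2-KO libraries. The more abundant mRNA of the pair was thus Rab32 in each WT library and Rab38 in each Ythdf2-KO library. The exact two-sided permutation p for this share was 0.10, the smallest that 3 against 3 libraries allow (Benjamini-Hochberg adjusted p = 0.114 over 16 ratios and sums, as for each other one with an exact p of 0.10). The summed level was 37.5 ± 1.65 CPM per kilobase in WT and 44.1 ± 1.15 CPM per kilobase in Ythdf2-KO, without overlap (SD, n = 3; exact permutation p = 0.10). With the median transcript length the sum was 50.7 ± 2.30 in WT and 62.4 ± 1.65 in Ythdf2-KO (SD, n = 3), also without overlap. As plain CPM the sum was 77.9 ± 3.12 in WT and 79.6 ± 1.95 in Ythdf2-KO (SD, n = 3; exact permutation p = 0.40), and on that scale the libraries of the groups overlapped.

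**Figure D2:**
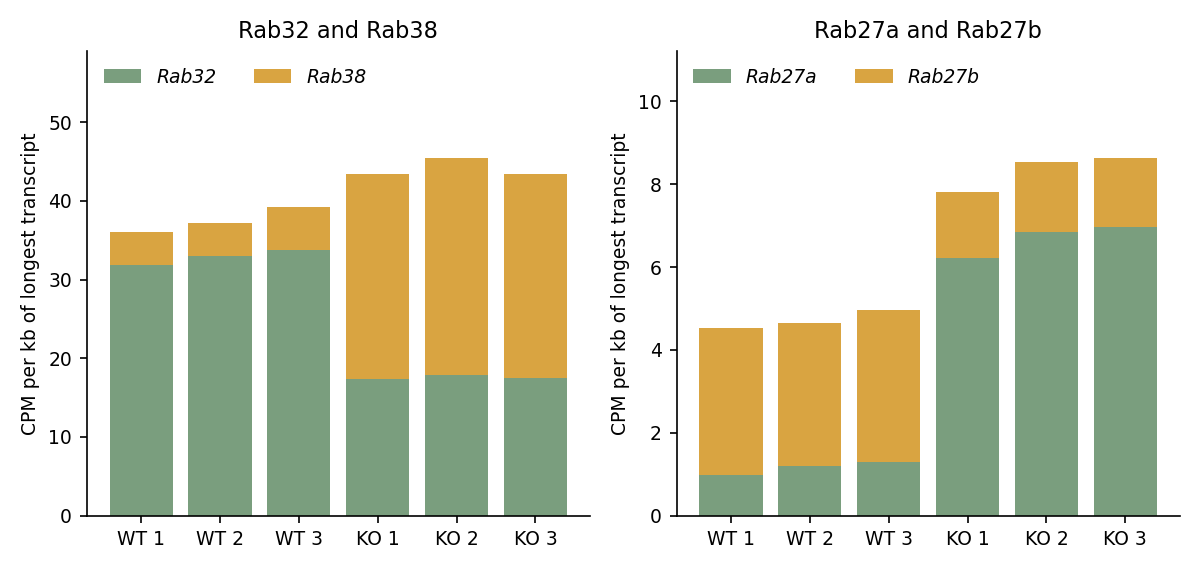
Stacked levels of Rab32 with Rab38 (left) and of Rab27a with Rab27b (right) in each library, in CPM per kilobase of the longest transcript; KO is Ythdf2-KO. The Rab38 portion is 11.1 to 14.1% of the pair in WT and 59.7 to 60.7% in Ythdf2-KO, and the Rab27a portion 21.4 to 25.9% and 79.7 to 80.6%.

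Hps1 and Hps4 encode the subunits of BLOC-3, the complex that is known to activate Rab32 and Rab38 as their guanine nucleotide exchange factor. Hps1 stood at 31.7, 32.5 and 31.4 CPM in the WT libraries and 37.2, 33.99 and 38.2 CPM in the Ythdf2-KO libraries. The groups did not overlap, although Ythdf2-KO replicate 2 was close to WT, and the rise was 1.14-fold (log2 fold change 0.19 ± 0.044, SE; edgeR adjusted p = 2.63e-04). Hps4 stood at 25.6, 24.7 and 25.8 CPM in the WT libraries and 25.3, 25.1 and 27.9 CPM in the Ythdf2-KO libraries. Its groups overlapped and it did not pass the test (log2 fold change 0.042 ± 0.050, SE; edgeR adjusted p = 0.526). The ratio of Hps1 to Hps4 per length was 1.32 ± 0.0548 in WT and 1.46 ± 0.0671 in Ythdf2-KO (SD, n = 3; exact permutation p = 0.10), and with the median transcript length it was 0.837 and 0.930. A noncoding transcript on the opposite strand overlaps exons of each gene, Gm16244 at Hps1 and Gm20636 at Hps4. Both were low: Gm16244 had a mean of 0.894 CPM in the WT and 1.25 CPM in the Ythdf2-KO libraries, and Gm20636 one of 0.188 and 0.218 CPM, but without a stated strand setting their reads cannot be told apart from those of the 2 genes.

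Lyst encodes a large BEACH-domain protein that governs the size of lysosome-related organelles and is mutated in Chediak-Higashi syndrome. The WT libraries held 80.4, 79.9 and 79.6 CPM of it and the Ythdf2-KO libraries 89.9, 86.5 and 85.5 CPM. The groups did not overlap, and the rise of 1.09-fold was the smallest among the called genes of the 10 (log2 fold change 0.13 ± 0.030, SE; edgeR adjusted p = 3.13e-04). Lyst has the longest transcript of the 10, at 13.2 kilobases. When transcript length and GC content entered as offsets, its log2 fold change was -0.036 and the call was lost (edgeR adjusted p = 0.307), so its direction depended on that choice.

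Rab27a, Mlph and Myo5a encode the tripartite complex that holds mature melanosomes on actin: RAB27A sits on the melanosome membrane, melanophilin (Mlph) binds it, and the motor myosin Va (Myo5a) binds melanophilin. All 3 genes were higher in Ythdf2-KO, by very different amounts. Rab27a stood at 3.08, 3.77 and 4.07 CPM in the WT libraries and 19.7, 21.7 and 22.05 CPM in the Ythdf2-KO libraries. The lowest Ythdf2-KO library was several times above the highest WT library. Rab27a rose by a log2 fold change of 2.53 ± 0.084 (SE, n = 3 per group; edgeR adjusted p = 1.97e-28), ranking 253 in the same order. A pseudogene on the same strand that shares 149 exon bases with Rab27a, Gm27186, was at 0 counts in each library. How reads over the shared bases were counted is not given, so this does not show that no Rab27a reads were lost there.

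Mlph stood at 72.7, 74.1 and 78.2 CPM in the WT libraries and 95.3, 100.03 and 103 CPM in the Ythdf2-KO libraries. The groups were separate, with a rise of 1.33-fold (log2 fold change 0.41 ± 0.032, SE; edgeR adjusted p = 7.50e-15). Myo5a stood at 264, 278 and 265 CPM in the WT libraries and 365, 372 and 372 CPM in the Ythdf2-KO libraries, also without overlap. It rose 1.37-fold (log2 fold change 0.46 ± 0.023, SE; edgeR adjusted p = 4.11e-22). With those offsets the log2 fold change of Myo5a, whose longest transcript is 11.7 kilobases, was 0.30 and was called (edgeR adjusted p = 1.07e-16). Melanocytes are known to use a Myo5a splice form with an extra exon that melanophilin binds, which gene-level counts cannot separate.

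Per length, the Rab27a mRNA was the scarcest of the tripartite complex in each library. The ratio of Mlph to Rab27a was 16.6, 13.8 and 13.5 in the WT libraries and 3.40, 3.25 and 3.29 in the Ythdf2-KO libraries. The ratio of Myo5a to Rab27a was 23.3, 19.9 and 17.6 in the WT libraries and 5.01, 4.65 and 4.57 in the Ythdf2-KO libraries. Neither ratio overlapped between the groups (exact permutation p = 0.10 each). With the median transcript length, Mlph over Rab27a was 24.9 in WT and 5.63 in Ythdf2-KO, and Myo5a over Rab27a was 81.6 and 19.1. The median covers short annotated transcripts too, and for Myo5a it was 2.82 kilobases against 11.7 for the longest. Myo5a and Mlph instead kept similar proportions to each other, with a ratio of 1.38 ± 0.0714 in WT and 1.43 ± 0.0417 in Ythdf2-KO (SD, n = 3; exact permutation p = 0.50). With the median length it was 3.27 and 3.39. The difference of that ratio was 0.052 ± 0.050 on the log2 scale (SE).

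Rab27b, a paralog that can also bind Rab27 effectors, changed in the opposite direction to Rab27a. It stood at 24.6, 23.8 and 25.4 CPM in the WT libraries and 10.9, 11.7 and 11.5 CPM in the Ythdf2-KO libraries, and fell 2.16-fold (log2 fold change -1.11 ± 0.060, SE; edgeR adjusted p = 1.29e-20). Rab27a was 24.3 ± 2.50% of the summed Rab27a and Rab27b level per length in WT and 80.2 ± 0.442% in Ythdf2-KO (SD, n = 3; exact permutation p = 0.10). These shares depended on the transcript length used: with the median length in place of the longest they were 12.03 and 63.2%. The summed level in Ythdf2-KO was 1.77 times that in WT per length and 1.15 times as plain CPM (exact permutation p = 0.10 each). With the median length the sum was 9.83 ± 0.372 CPM per kilobase in WT and 10.9 ± 0.552 in Ythdf2-KO (SD, n = 3), and the groups overlapped. The pairs Rab32 with Rab38 and Rab27a with Rab27b thus each had 1 gene that rose and 1 that fell. Among the other class V myosins, Myo5c rose 3.82-fold from a low level, from 0.911 to 3.48 CPM, and Myo5b, with 56 counts over the 6 libraries, was too low to be tested.

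Mreg encodes melanoregulin, which was found as the dilute suppressor locus and takes part in melanosome distribution in the cell. It stood at 19.6, 21.03 and 20.2 CPM in the WT libraries and 22.2, 23.2 and 25.03 CPM in the Ythdf2-KO libraries. The groups did not overlap but lay close, and the rise was 1.16-fold (log2 fold change 0.21 ± 0.055, SE; edgeR adjusted p = 1.14e-03). Under the other settings tried, its adjusted p in the respective tool reached at most 0.0250.

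Gpnmb encodes a transmembrane glycoprotein of melanosomes related to the melanosome fibril protein PMEL, and it was the most abundant of the 10 mRNAs on the scale per length. It stood at 1204, 1221 and 1195 CPM in the WT libraries and 1667, 1654 and 1671 CPM in the Ythdf2-KO libraries. The libraries of a group differed by little, with a coefficient of variation of 1.08% in WT and 0.533% in Ythdf2-KO. Gpnmb rose 1.38-fold (log2 fold change 0.46 ± 0.020, SE, n = 3 per group; edgeR adjusted p = 1.54e-24). Its relative Pmel rose far more, so that the ratio of Gpnmb to Pmel per length was 17.01 ± 0.558 in WT and 3.24 ± 0.0581 in Ythdf2-KO (SD, n = 3; exact permutation p = 0.10). With the median transcript length this ratio was 7.92 in WT and 1.51 in Ythdf2-KO.

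Gpnmb, Lyst and Rab27a are also known from macrophages and other leukocytes. The pan-leukocyte marker Ptprc had 2, 6 and 5 counts in the WT libraries and 2, 0 and 74 counts in the Ythdf2-KO libraries replicates 1 to 3. Without Ythdf2-KO replicate 3, which held the 74, the log2 fold changes of Rab27a, Gpnmb and Lyst were 2.50, 0.46 and 0.14. With all libraries they were 2.53, 0.46 and 0.13. Of the leukocyte markers, 4 were tested: Cd14 fell from 23.8 to 9.46 CPM, Cd68 from 20.4 to 14.3 CPM and Adgre1 from 0.261 to 0.0398 CPM, and the myeloid marker Lyz2 rose from 9.79 to 11.9 CPM. Adgre1 rests on few counts: 22, 10 and 16 in the WT and 2, 2 and 4 in the Ythdf2-KO libraries. Leaving out Ythdf2-KO replicate 3 cannot test the part of leukocyte RNA, because Cd14, Cd68 and Lyz2 had counts in every library. The part of leukocyte RNA in the levels of Gpnmb, Lyst and Rab27a was not tested.

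**Figure D3:**
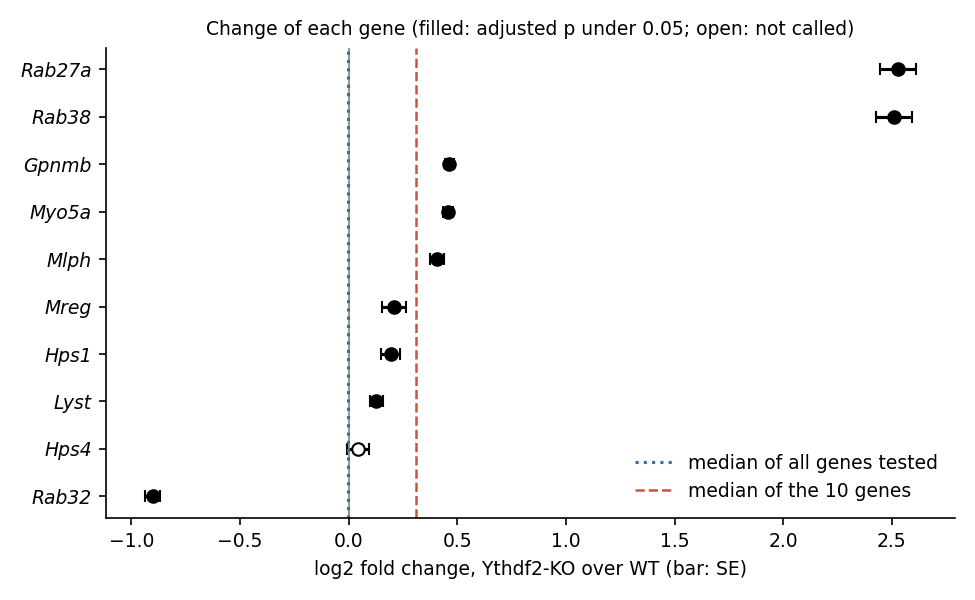
Log2 fold change of each gene in Ythdf2-KO over WT with its SE (3 libraries per group), filled where the adjusted p was under 0.05; the dashed and dotted lines are the medians of the 10 genes (0.31) and of all genes tested (-0.0053). Rab27a and Rab38 lie near 2.5, Rab32 at -0.90 and the other 7 between 0.042 and 0.46.

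Ordered by mean level per kilobase of the longest transcript, WT cells had Gpnmb at 326, Rab32 at 32.9, Myo5a at 22.98, Mlph at 16.7, Hps1 at 9.98, Mreg at 8.88, Hps4 at 7.58, Lyst at 6.07, Rab38 at 4.63 and Rab27a at 1.15 CPM per kilobase. The 2 genes that rose most were those with the lowest WT level. The WT level is also the denominator of the fold change, so these orders are not independent. In Ythdf2-KO the order was Gpnmb at 449.5, Myo5a at 31.6, Rab38 at 26.5, Mlph at 22.1, Rab32 at 17.6, Hps1 at 11.4, Mreg at 10.3, Hps4 at 7.80, Rab27a at 6.68 and Lyst at 6.62 CPM per kilobase. Rab27a and Lyst, the neighbors at the low end, differed by less than the SD of Rab27a (0.396 CPM per kilobase). Leaving Gpnmb aside, the highest of the 9 genes was 32.7, 27.8 and 26.2 times the lowest in the WT libraries and 5.01, 4.85 and 4.90 times in the Ythdf2-KO libraries (exact permutation p = 0.10). The order and this ratio depended on the transcript length: with the median length, the highest was 81.6 ± 11.5 times the lowest in WT and 19.1 ± 0.949 times in Ythdf2-KO (SD, n = 3). Myo5a, at 95.3 CPM per kilobase, was then second to Gpnmb in WT, and Lyst stood above Rab27a in Ythdf2-KO, at 13.07 and 6.88 CPM per kilobase. The place of Myo5a rests on its median length of 2.82 kilobases, against 11.7 for its longest transcript. Rab27a and Rab38 were the lowest in WT on that scale too. Gpnmb made up 74.6 ± 0.506% of the summed level of the 10 genes per length in WT and 76.2 ± 0.345% in Ythdf2-KO (SD, n = 3).

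The rest of the pathway was read from 12 lists with 88 further genes, of which 86 were in the table and 80 were tested. Of these, 44 were higher and 14 lower in the knockout libraries, and the median log2 fold change was 0.18. Over all genes tested, 24.1% were called higher and 25.8% lower, which is also the background for each list below. In the BLOC-1 and SNARE lists, 4 of 8 and 3 of 6 genes were not called, near the share over all genes. With upper-quartile scaling 52 of the 80 were higher and 7 lower, but that scaling also gave 5222 higher and 3597 lower over all genes. The lists were chosen with earlier results in view, and Rab9a and Vamp7 were not analysed here. The median log2 fold changes of the BLOC-1, BLOC-2, AP-3, AP-1, tether and SNARE lists were -0.0032 to 0.35.

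BLOC-1 and BLOC-2 act in the carriers that bring cargo from endosomes to melanosomes. Of 8 BLOC-1 subunits, Bloc1s6 rose (log2 fold change 0.24) and Bloc1s4, Bloc1s2 and Snapin fell (-0.28, -0.11 and -0.11), with a median of -0.0032. Of the 3 BLOC-2 subunits, Hps3 and Hps5 rose (0.43 and 0.35) and Hps6 fell (-0.29). The adaptor complexes AP-3 and AP-1 select cargo on endosomes. Among 5 AP-3 genes, Ap3d1 and Ap3b1 rose (0.30 and 0.065), while Ap3s1, which encodes a small subunit, fell 1.55-fold from 69.6 to 44.9 CPM (edgeR adjusted p = 4.54e-20). Among 6 AP-1 genes, Ap1s2, Ap1b1 and Ap1m1 rose (0.55, 0.22 and 0.17) and Ap1g1 fell (-0.18). Of 8 genes of the HOPS and CORVET tethers, which join endosomal and lysosomal membranes, 5 rose, led by Vps11, Vps41 and Vps8 (0.29, 0.23 and 0.22), and 3 did not pass. Of 6 SNARE genes tested, Stx7, Snap23 and Stx12 rose (0.23, 0.10 and 0.083) and 3 did not pass.

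Of 13 genes listed with Rab27, 9 were tested, 3 rose and 3 fell, and the list's median was 0.19 on the log2 scale. Sytl2, which encodes a Rab27 effector that docks melanosomes at the plasma membrane, stood at 4.90, 4.86 and 4.55 CPM in the WT libraries and 22.7, 23.3 and 23.6 CPM in the Ythdf2-KO libraries. That is a rise of 4.87-fold (log2 fold change 2.28 ± 0.071, SE; edgeR adjusted p = 1.48e-29). Sytl4, another effector, rose 3.28-fold from 0.292 CPM, and Madd, which encodes a Rab27 exchange factor, rose 1.39-fold. Tbc1d10a and Tbc1d10b, which encode GTPase-activating proteins, fell 1.17- and 1.18-fold.

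Sgsm2, which encodes a GTPase-activating protein of Rab32 and Rab38, stood at 10.5, 9.64 and 10.6 CPM in the WT libraries and 28.3, 30.4 and 30.8 CPM in the Ythdf2-KO libraries. It rose 2.90-fold (edgeR adjusted p = 4.21e-26). Rab29, a relative of Rab32 and Rab38, rose 3.37-fold but had only 6 to 18 counts in WT libraries and 37 to 52 in Ythdf2-KO libraries. Ankrd27, which encodes the shared effector VARP, fell 1.05-fold, with an adjusted p of 0.0442 by edgeR.

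Of 10 tested genes of motors and actin nucleators, 7 rose and 2 fell. Apart from Myo5c, the largest rises were those of Fmn1, which encodes a formin, and Myo7a, a myosin of pigment cells (1.40- and 1.27-fold). Kif13a and Dync1h1, which encode microtubule motors, fell 1.07- and 1.06-fold. Of 8 BEACH-domain relatives of Lyst, 5 rose and 1, Nbeal2, fell (log2 fold change -0.20). Lrba and Nbea rose 1.41- and 1.36-fold, and Wdfy4 rose 1.89-fold from 0.972 CPM. The longest transcripts of Lrba, Nbea and Fmn1 are 9.89, 11.0 and 11.8 kilobases. Their changes with the offsets for transcript length and GC content are not given here.

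The cargo that this machinery carries had large rises. Of 10 cargo genes, 9 rose, with a median log2 fold change of 2.79, against 0.31 for the 10 machinery genes; Slc45a2, Gpr143 and Tyr led with 3.08, 3.05 and 2.93. Atp7a, a copper transporter gene with roles outside pigment cells, did not pass (log2 fold change 0.027, edgeR adjusted p = 0.602). Of the MITF family and Sox10, 4 genes were tested: Sox10 and Mitf rose 4.33- and 1.27-fold, and Tfe3 fell 1.08-fold.

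**Figure D4:**
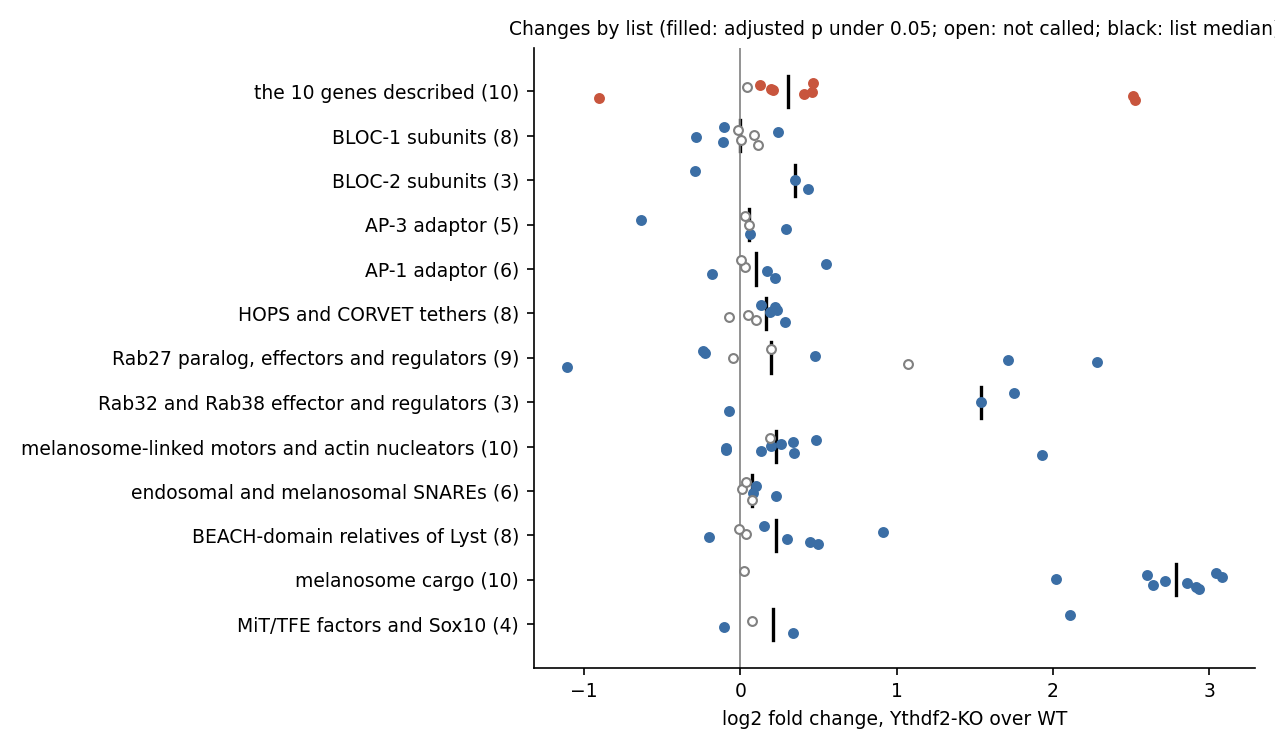
Log2 fold change of each tested gene in Ythdf2-KO over WT by list (number tested in parentheses), filled where the adjusted p was under 0.05, with a black bar at the list median. The cargo genes lie mostly between 2.02 and 3.08, Rab27a and Rab38 lie near them, and the medians of the sorting and tethering lists lie between -0.0032 and 0.35.

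Each of the 10 genes was set beside the pathway gene with the most similar pattern, by the Euclidean distance between log2 CPM values centred over the 6 libraries, among 89 candidates. The nearest to Rab27a was the cargo gene Mlana (distance 0.262; log2 fold changes 2.53 and 2.72), and the nearest to Rab38 was Rab27a (distance 0.290). Myo5a and Gpnmb were nearest to each other, at a distance of 0.0477 with log2 fold changes of 0.46 each. Rab32 was nearest to Rab27b (0.272), Mlph to Hps5 (0.113), Mreg to Dctn1 (0.115), Hps1 to Vps41 (0.0920), Hps4 to Vamp8 (0.0869) and Lyst to Nsmaf (0.0804). These distances describe the same 6 libraries for every gene and say nothing of shared control.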

How the data were processed

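The submitters' processing notes name fastp 0.23.2, HISAT2 2.2.1, featureCounts 2.0.6 and the build GRCm39. How strand and multi-mapping reads were handled is not given in the sources used. The deposited values are whole counts per gene symbol, not normalized. Columns were matched to samples by the labels. Genes were kept by edgeR's filterByExpr (17718 of 56734), scaled by TMM and compared with a robust quasi-likelihood model in edgeR 4.0.16 (R 4.3.3), with p-values adjusted by Benjamini-Hochberg over every tested gene. The SE of each edgeR log2 fold change was derived as its absolute value divided by the square root of the F statistic. It is not a separately fitted standard error. Levels are given as TMM-scaled CPM. Levels per kilobase used the longest transcript per symbol in GENCODE M21 (GRCm38), and retained-intron transcripts were left out. Median lengths, where given, were taken over all other annotated transcripts, short ones included, whether coding or not. Ratios within a library were compared by exact two-sided permutation. The pipeline was tested on simulated counts, with 50 genes changed at each size, drawn from genes with mean counts of at least 20. It recovered 60, 78, 90 and 100% of those changed 1.2-, 1.5-, 2- and 4-fold, and called 8 unchanged genes. The 10 genes and the lists were chosen with earlier results of these data known. The rule for further named genes took the paralogs of Rab27a and Myo5a and the nearest gene in pattern. From each list it took up to 3 called genes per direction with the largest changes. Ythdf2 was named as a check of the labels, but its log2 fold change of -0.29 does not show a knockout. Any other gene was named after its values were known. Alternatives were RLE and upper-quartile scaling, scaling without abundant genes, other filters, the replicate block, DESeq2 1.42.0, limma-voom (limma 3.58.1), length and GC offsets, leaving out each library and a stricter adjusted p. Within a genotype, chi-square per degree of freedom between libraries was 4.22 to 14.6, above sampling noise. A count of 3 equalled 0.0433 to 0.0540 CPM. A marker gene on a list is not reported here.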

Additional observations from a re-analysis of the deposited data

How the results depend on the processing

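Of the 10 genes, 8 were called higher and 1 lower under each alternative except the offsets for transcript length and GC content, under which 7 were higher and 1 lower because Lyst was lost, at a log2 fold change of -0.036. Leaving out each library gave a log2 fold change of -0.0086 to 0.069 for Hps4, which was never called, and the negative value came without Ythdf2-KO replicate 3. Rab27a ranged from 2.43 to 2.62, Rab38 from 2.44 to 2.67 and Rab32 from -0.92 to -0.85 over all settings. Of the 80 pathway genes, 14 were called lower, but 7 with upper-quartile scaling and 9 at an adjusted p under 0.01. With the median transcript length, an alternative chosen after seeing the data, the log2 difference of the Rab27a share was 2.40 in place of 1.73, that of the Rab27a and Rab27b sum 0.15 in place of 0.82, and that of the highest over the lowest of the 9 genes -2.09 in place of -2.55. The log2 difference of the Rab32 and Rab38 sum per length was 0.30 with the median length in place of 0.24. With the replicate block, 4132 genes were higher and 4409 lower in all, and the 10 genes again gave 8 and 1. The numbers are not said to pair samples, and deviations of same-numbered libraries correlated at 0.0459, -0.0932 and -0.124. Not every library correlated best with its own number. At 3 libraries per group the exact test of a ratio cannot go below 0.10, and changes from under 1 CPM rest on few counts.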
